A study of Mus musculus with 2 samples.

Results

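DNA replication and S phase genes were followed through the immune cells that infiltrate the mouse colon during experimental colitis. They are 47 genes, chosen by symbol for their known roles and not by their values: the MCM helicase subunits, the proteins that load and start the helicase, the DNA polymerases and primase, the sliding clamp with its loaders and the Okazaki fragment enzymes, the enzymes that supply nucleotides, the chromatin proteins of the fork, and a few regulators. All 47 were found among the 32285 genes of the deposited tables, and all 47 had at least 20 UMIs (unique molecular identifiers, the counted RNA molecules) over both libraries, as did 14149 genes in all.

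The series holds 2 single-cell libraries, each made from colon immune cells of C57BL/6 mice with experimental colitis. 1 library is labelled WT and 1 is labelled CKO, a short form that the labels do not spell out. The series title names loss of RPA1, the large subunit of the protein that coats single-stranded DNA at the fork. The labels give neither the deleting Cre and its promoter, nor the agent that caused the colitis, nor the animals' age, sex or number per library. With 1 library for each label there is no test between them: every interval given is a 95% interval of counting error alone, and "higher" and "lower" describe these 2 libraries.

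DNA replication is prepared in G1, when the origin recognition complex with Cdc6 and Cdt1 loads the ring of Mcm2 to Mcm7 onto DNA. In S phase, Cdc45 and the GINS complex turn that ring into the active helicase, polymerases copy both strands, and the clamp Pcna holds them on DNA. Transcription of most of these genes is driven by E2F factors once a cell leaves rest, so their RNA is commonly read as a sign of cells that are dividing, as activated T cells, germinal centre B cells and plasmablasts do.

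The WT library held 2972 barcodes and 18627050 UMIs, and the CKO library held 11311 barcodes and 57740083 UMIs. The median barcode had 4083 UMIs in the WT library and 3338 in the CKO library. After filters, 2924 and 10942 cells remained, and they carried 20322 and 46376 UMIs of replication genes. The doublet caller marked 1 WT cell, under 0.5% of that library, so doublets were in effect not removed there. It marked 213 CKO cells. 6 barcodes occurred in both libraries. Cell classes are called "X-like" after marker genes, and T-like cells carried UMIs of 13 of 13 T cell markers in both libraries, at a summed 4561 and 4622 CPM (UMIs scaled to 1000000 UMIs of the class). Rpa1 gave 92 UMIs or 43.0 CPM in WT T-like cells and 186 UMIs or 62.1 CPM in CKO T-like cells, and 28.6 and 27.7 CPM in B-like cells. Since 3′ tags can lie outside a deleted exon, these values do not check the CKO label. Neutrophil marker RNA differed between the libraries in the lymphocyte classes. In T-like cells 12 of 16 neutrophil markers had a UMI in the WT library, at a summed 81.7 CPM, with Cxcr2, Mmp8, Ngp and Camp at 0. In the CKO library it was 14 of 16 at 259 CPM, with Ngp and Camp at 0. In B-like cells the sums were 53.0 and 257 CPM, and in plasma-like cells 22.2 and 136 CPM. Plasma cell markers, 12 of 12 with a UMI in T-like cells of both libraries, summed there to 2343 and 1222 CPM. The part of this foreign RNA in the results was not tested.

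Among the classes, the replication genes were highest in germinal centre B-like cells and lowest in neutrophil-like cells. The 62 germinal centre B-like cells of the WT library carried 4678 CPM of the 47 genes (interval 4531 to 4829), and all 47 genes had a UMI in them. They also carried germinal centre RNA, with Rgs13, a regulator of G protein signalling in these cells, at 246 CPM. The CKO library had only 2 such cells, with 10 replication gene UMIs, so the class was not compared between libraries. The level depends on leaving cell cycle genes out of the clustering. With them kept, 29 of the WT cells stayed germinal centre B-like, at 1383 CPM, and 30 joined an unnamed cluster of 54 WT and 89 CKO cells led by Pclaf and Hist1h1b, at 4870 and 3958 CPM, which also took 14 WT and 48 CKO plasma-like cells. T-like cells carried 1606 CPM (1552 to 1660) in the WT library and 1720 CPM (1673 to 1767) in the CKO library. B-like cells carried 1073 CPM (1042 to 1104) and 1119 CPM (1102 to 1136). NK-like cells carried 1002 CPM (842 to 1183) in 24 WT cells and 1851 CPM (1783 to 1920) in 243 CKO cells. Plasma-like cells were lower, at 632 and 706 CPM, as were type 2 innate lymphoid (ILC2-like) cells at 638 and 656 CPM. Monocyte and macrophage-like cells carried 391 and 370 CPM. Neutrophil-like cells carried 288 CPM over 111 UMIs in the WT library and 158 CPM over 830 UMIs in the CKO library. The neutrophil-like class was built of different clusters: an Ngp Camp cluster held 0 of 181 WT and 361 of 1802 CKO cells, and an Spp1 Ankrd33b cluster 85 and 118. Plasma cell marker RNA in it was at 3610 and 1401 CPM, and the part of either in the difference was not tested. T-like cells stood 5.58-fold above them in the WT library and 10.9-fold in the CKO library.

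These UMIs were held by few cells. In T-like cells the top 5% of cells held 46.9% of the replication gene UMIs in the WT library and 43.8% in the CKO library, and in plasma-like cells 62.8% and 61.3%. Counting intervals treat UMIs as independent, so they are too narrow where single cells hold many of them. Each cell was therefore also thinned at random to 1000 UMIs and called positive at 3 or more replication gene UMIs. In germinal centre B-like cells of the WT library 28 of 62 cells were positive, 45.2% (exact binomial interval 32.5 to 58.3). In T-like cells the share was 14.6% (11.2 to 18.7) in the WT library and 14.0% (11.4 to 17.0) in the CKO library, where the unthinned shares were 78.3% and 70.8%. In B-like cells it was 7.70% (6.03 to 9.66) and 8.0% (7.20 to 8.86), and in plasma-like cells 4.65% and 5.20%. The plasma-like shares became 0% and 0.220% with cell cycle genes kept in the clustering, which moved plasma-like cells, 14 WT and 48 CKO, into the cycling cluster. In NK-like cells it was 12.5% (2.66 to 32.4) and 18.5% (13.8 to 24.0), and in each class compared the intervals of the 2 libraries overlapped. Neutrophil-like cells, taken as a low reference class, gave 1.26% (0.153 to 4.47) and 0.348% (0.128 to 0.755). The part of stray RNA in these shares was not tested. Mki67 stood there at 88.1 and 45.3 CPM, and Top2a at 2.59 and 3.04 CPM (1 and 16 UMIs). At 1000 UMIs, 2.52% and 3.19% of them held 2 or more UMIs of G2 and M phase genes. Median UMIs per cell before thinning were 2039 and 2584 in neutrophil-like cells and 4688.5 and 3881 in T-like cells. Thinning left out 5 and 16 T-like, 33 and 100 B-like and 22 and 76 neutrophil-like cells as too shallow.

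**Figure D1:**
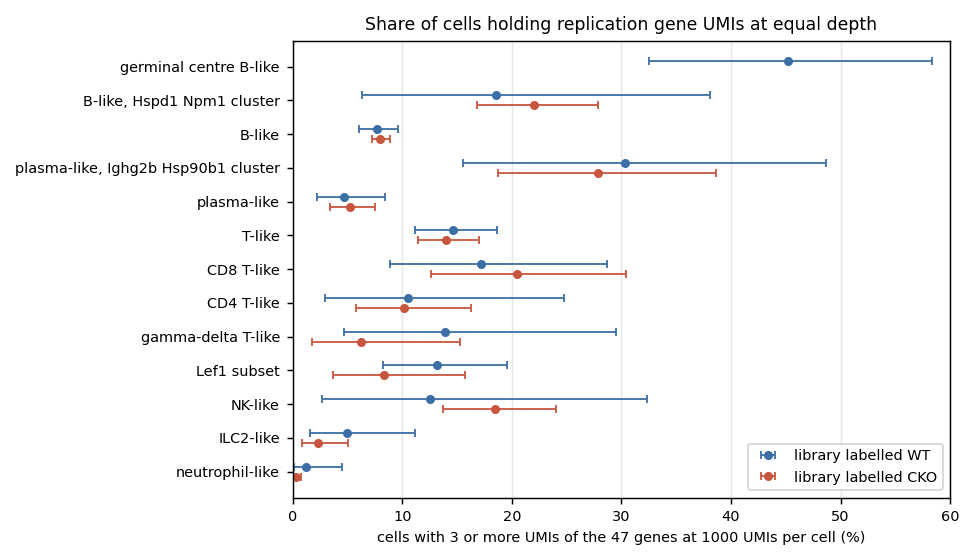
Percent of cells with 3 or more UMIs of the 47 replication genes after each cell was thinned to 1000 UMIs, by class and library, with exact 95% binomial intervals. The T-like shares of 14.6% and 14.0% and the B-like shares of 7.70% and 8.0% lie within each other's intervals, and the germinal centre B-like share of 45.2% is the highest drawn.

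Over all cells together, the replication genes were lower in the CKO library before the cell classes were taken apart. The sum was 1094 CPM (1079 to 1110) in the WT library and 832 CPM (825 to 840) in the CKO library, a log2 ratio of CKO over WT of -0.40 (-0.42 to -0.37). Of the 47 genes 17 were at least 1.5 times lower in the CKO library, against 12.5% of all genes read, and 0 were at least 1.5 times higher, against 17.3%. The lowest ratios were those of E2f8, a repressor of the E2F programme, at 5.6 and 2.33 CPM, and Cdca7, a chromatin protein of the Hells complex, at 13.8 and 6.41 CPM. Germinal centre B-like cells held 18.8% of the WT library's replication gene UMIs in 4.39% of its UMIs. Without them the sum was 930 CPM in the WT library and 832 in the CKO library, a log2 ratio of -0.16 (-0.19 to -0.13). With the neutrophil-like class and the monocyte and macrophage-like class also left out, the sums were 951 and 977 CPM, a log2 ratio of 0.04 (0.01 to 0.07). These classes were chosen after their levels were seen. Leaving out a high class of mostly WT cells and low classes of mostly CKO cells by itself raises the ratio, so nothing is concluded from the rise. In bulk terms, fewer cells of a class and less RNA in each cell cannot be told apart from such an all-cell sum.

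3 groups of cells in the B lineage carried the replication genes far above their neighbours in the same library. The germinal centre B-like cells stood 4.36-fold above B-like cells (WT library), with 46 of 47 genes above and 45 at least 1.5-fold above. Against the other B lineage cells their 10 leading genes included the cell cycle genes Pclaf, Mki67 and Hist1h1b, beside Rgs13. Among B-like cells, a cluster led by Hspd1 and Npm1, genes of protein folding and ribosome assembly, held 27 WT and 232 CKO cells. It had no listed B cell marker among its 10 leading genes. Dut, a further S phase gene, was among those 10 and came first against the other B lineage cells alone. It stood 2.76-fold above the other B-like cells in the WT library (2578 against 936 CPM) and 3.01-fold above them in the CKO library (2718 against 902 CPM). Among plasma-like cells, a cluster led by Ighg2b and Hsp90b1 held 33 WT and 89 CKO cells. Against the other plasma-like cells alone its leading genes were cell cycle genes, among them Hist1h1b, Pclaf, Mki67, Top2a and Rrm2, so it is the cycling plasma-like cluster, and its replication gene level is a description of how it stands apart. It stood 9.24-fold above the other plasma-like cells in the WT library (2198 against 238 CPM) and 11.4-fold above them in the CKO library (2411 against 212 CPM), with 47 of 47 genes above in both. Of the other plasma-like clusters, those led by Ighv7-3, Ccr10 and Trp53inp1 lay between 169 and 307 CPM. A further plasma-like cluster of 6 WT and 19 CKO cells was not summed on its own. At 1000 UMIs the Ighg2b Hsp90b1 cluster had 30.3% (15.6 to 48.7) and 27.9% (18.8 to 38.6) positive cells. These clusters were found from the same cells, with 257 cell cycle genes, the 47 included, left out of the clustering, so the folds are descriptions. So are the counts of genes above, since the share of all genes above in the same comparisons is not given. Between the libraries, the log2 ratio of CKO over WT was 0.08 (-0.03 to 0.18) in the Hspd1 Npm1 cluster and 0.13 (0.06 to 0.21) in the Ighg2b Hsp90b1 cluster. Without the cell of most replication gene UMIs in each library these were 0.30 (0.19 to 0.42) and 0.33 (0.24 to 0.41), and the first interval left 0. Without the top 2 cells they were 0.40 and 0.44. The top cell held 203 of 910 WT UMIs and 261 of 4895 CKO UMIs in the first cluster. In the second it held 443 of 1972 and 321 of 4418. Leaving out 1 cell per library thus took more of the WT sum, which by itself raises the ratio. Nothing is concluded from the rise.

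The helicase subunit Mcm5 had a wide contrast. It was at 172 CPM in germinal centre B-like cells against 21.3 in B-like cells. In the Ighg2b Hsp90b1 plasma cluster it was at 83.6 and 80.8 CPM in the WT and CKO libraries, against 0.84 and no UMI in the other plasma-like cells. Mcm3, another subunit of the ring, was at 194 against 40.4 CPM in germinal centre B-like cells. In the plasma cluster it was at 81.4 and 91.2 CPM against 1.68 and 0.949. Pcna, the sliding clamp, was present throughout and showed a smaller contrast. It was at 331 CPM in germinal centre B-like cells against 118 in B-like cells, and at 223 and 212 CPM in the plasma cluster against 38.9 and 34.0 in the other plasma-like cells.

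Nucleotide supply and chromatin genes gave some of the widest contrasts. Rrm2, the S phase subunit of ribonucleotide reductase, was at 105 CPM in germinal centre B-like cells and 4.26 in B-like cells. In the plasma cluster Rrm2 was at 124 and 146 CPM against 3.36 and 1.90. Tyms, which makes thymidylate, was at 95.6 against 5.20 CPM in germinal centre B-like cells. Uhrf1, which carries DNA methylation onto new strands, was at 142 against 5.44 CPM there, and at 44.6 and 40.9 CPM against 0.84 and 0.316 in the plasma cluster. E2f8 was at 65.0 against 1.18 CPM in germinal centre B-like cells, and Lig1, the ligase that joins Okazaki fragments, at 164 against 17.5 CPM.

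Cdt1, the licensing factor that is loaded before S phase, ran differently. In germinal centre B-like cells it was at 35.5 CPM against 44.0 in B-like cells, the 1 gene of the 47 not above. In the Hspd1 Npm1 cluster it was at 25.5 and 47.7 CPM against 45.7 and 57.7 in the other B-like cells, below them in both libraries. In the plasma cluster, however, Cdt1 was at 32.3 and 39.8 CPM against 7.56 and 7.91. Prim2, the large primase subunit, was also lower in the Hspd1 Npm1 cluster, at 2.83 CPM (1 UMI) and 11.1 CPM (20 UMIs) against 14.7 and 17.8. Cdca7 separated the groups in another way. It was at 109 CPM in germinal centre B-like cells and at 119 and 62.7 CPM in the Hspd1 Npm1 cluster, but at only 7.80 and 10.9 CPM in the plasma cluster. Why these members differ was not tested.

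**Figure D2:**
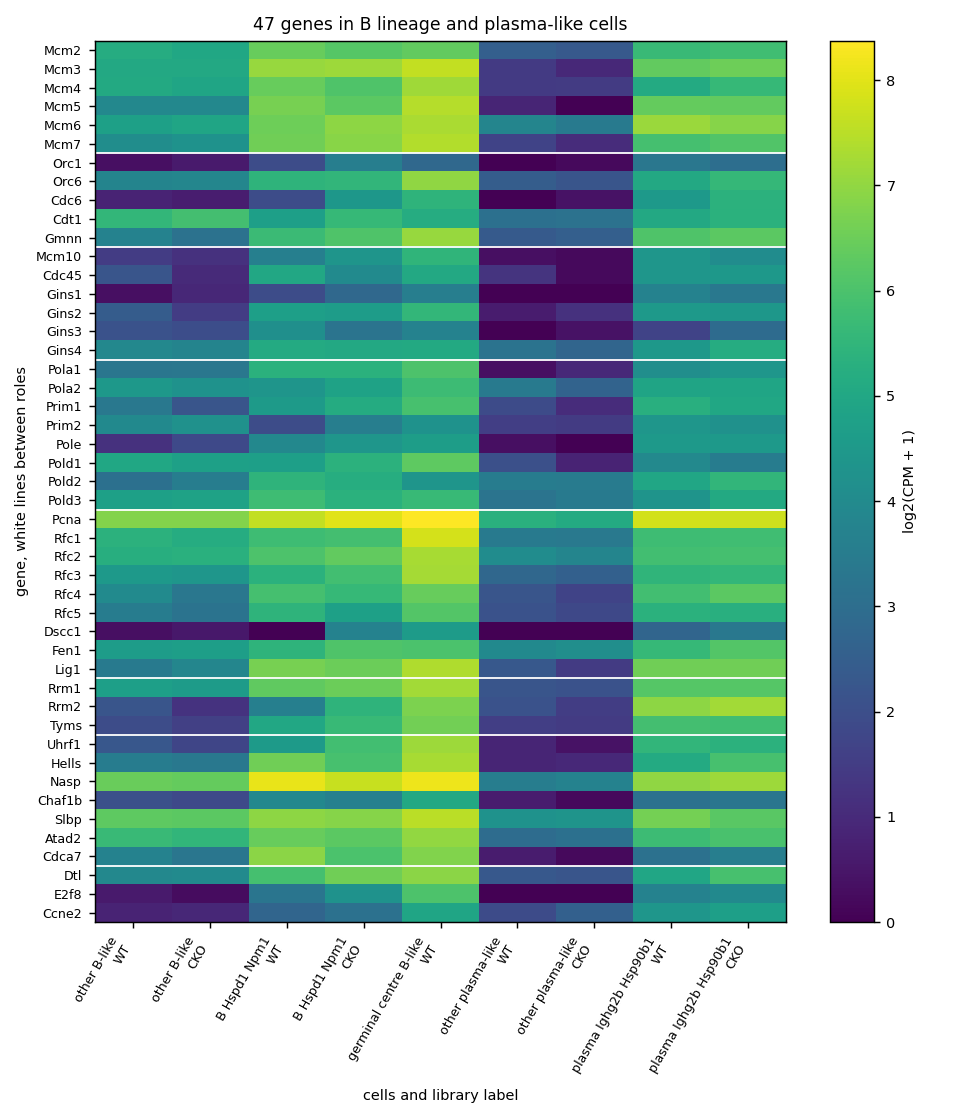
Level of each of the 47 replication genes, as log2(CPM + 1) in colour, in B-like, germinal centre B-like and plasma-like groups of each library, with genes ordered by role. Mcm5, Rrm2 and Uhrf1 are bright in the germinal centre column and in the Ighg2b Hsp90b1 plasma columns and dark in the other plasma-like columns, while Cdt1 is no brighter in the germinal centre column than in B-like cells.

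The promoters of the replication genes often held E2F-type letters. RefSeq promoter windows of 300 bases (250 before the start and 50 after, build GRCm38.p6) were matched for 36 of the 47 genes. TTTCCCGC, TTTGGCGC, TTTCGCGC or TTTGCCGC, read on both strands, occurred in 17 of 36 genes (47.2%) and in 704 of 27025 genes of the table (2.60%). Of 42 genes in a list of G2 and M phase genes 1 had such a match (2.38%). CCAAT occurred in 63.9% of the replication genes and 41.1% of all genes, and the letters TTTGAA or TTTAAA in 27.8% and 30.6%, against 81.0% and 81.0% of the G2 and M phase genes. The windows of replication genes were richer in G and C, with a median of 61.3% against 52.7%. The 4 promoters below are shown because the genes contrast: Mcm5, Mcm6 and Orc1 hold matches, while Rrm2, among the most strongly contrasted genes above, holds none of these letters. Each run is the 250 bases before the start, 5′ to 3′ on the gene's strand, with the E2F-type letters in capitals (either strand). Mcm5 lies at chr8:75109259-75109508 (plus strand), with 2 overlapping matches that begin 153 and 149 bases before the start. Mcm6 lies at chr1:128359706-128359955 (minus strand), with overlapping matches at 110 and 106 bases and another at 47. Orc1 lies at chr4:108579204-108579453 (plus strand), with 1 match at 27 bases. Rrm2 lies at chr12:24708004-24708253 (plus strand).
Mcm5: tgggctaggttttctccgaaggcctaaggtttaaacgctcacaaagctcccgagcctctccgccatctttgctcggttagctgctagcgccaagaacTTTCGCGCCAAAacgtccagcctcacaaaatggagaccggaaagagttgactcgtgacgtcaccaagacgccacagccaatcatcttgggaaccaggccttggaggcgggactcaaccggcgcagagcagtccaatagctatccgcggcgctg
Mcm6: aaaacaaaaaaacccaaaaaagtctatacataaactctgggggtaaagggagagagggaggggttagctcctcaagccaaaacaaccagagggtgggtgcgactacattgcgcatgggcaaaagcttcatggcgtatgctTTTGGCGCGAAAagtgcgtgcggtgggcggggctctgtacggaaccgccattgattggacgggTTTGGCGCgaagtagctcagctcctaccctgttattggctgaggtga
Orc1: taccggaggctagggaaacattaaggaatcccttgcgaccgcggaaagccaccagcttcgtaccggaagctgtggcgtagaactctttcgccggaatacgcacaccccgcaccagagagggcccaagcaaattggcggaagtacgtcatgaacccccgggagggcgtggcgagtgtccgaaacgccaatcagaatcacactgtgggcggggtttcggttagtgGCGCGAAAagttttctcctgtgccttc
Rrm2: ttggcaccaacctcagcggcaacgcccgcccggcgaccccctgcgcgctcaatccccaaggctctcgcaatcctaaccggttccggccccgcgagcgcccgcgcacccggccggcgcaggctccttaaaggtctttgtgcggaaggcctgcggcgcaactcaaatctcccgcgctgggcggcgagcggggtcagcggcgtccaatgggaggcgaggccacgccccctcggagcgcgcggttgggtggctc
A match is a run of letters in a window and not evidence of binding, and levels in the 2 libraries were not tied to it. Genes with a match included Mcm3, Mcm7, Cdt1, Cdc6, Uhrf1 and Lig1, and genes without one in their window included Pcna, Tyms and Cdc45.

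T-like cells differed little between the libraries over the replication genes as a whole. The summed log2 ratio was 0.10 (0.04 to 0.16), and it was 0.16 without the 1 T-like cell of most replication gene UMIs in each library, 310 and 196 UMIs. With 5 T cell subsets given the same weight in both libraries, the ratio was -0.19. The weighted values keep 1 WT CD4 T-like cell that held 310 of the 484 replication gene UMIs of its subset. Without the top cell of each library that subset stood at 1003 and 1091 CPM, against 2164 and 1148 CPM with them. The part of that cell in the weighted values was not tested. The subsets were mixed in different proportions: a Lef1 subset, led by genes of naive T cells, made up 154 of 374 WT cells and 98 of 650 CKO cells. A Cd8a Itgae subset, led by genes of intraepithelial T cells, made up 7 and 96 cells. Only subsets of at least 10 cells in both libraries were weighted, so the Cd8a Itgae subset is not among the 5. Every value given with subsets weighted alike therefore also leaves that subset out, and the 2 effects were not separated. Of 45 replication genes read (20 or more UMIs in T-like cells of both libraries together) 7 were at least 1.5 times higher in the CKO library, against 13.7% of all genes, and 1 was at least 1.5 times lower, against 7.68%. Their median log2 ratio was 0.19, against 0.07 over all genes read. With subsets weighted alike 3 were higher and 5 lower by 1.5-fold, with 14 above 0 and 31 below, where 9.79% and 9.7% of all genes were. Gins1 and Dscc1, a subunit of an alternative clamp loader, were not read.

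Among helicase subunits in T-like cells, Mcm4 had the lowest ratio. Mcm4 had 175 UMIs in the WT library, or 81.7 CPM, and 152 UMIs in the CKO library, or 50.8 CPM, a log2 ratio of -0.69 (-1.01 to -0.37), spread over 102 and 105 cells. It kept a negative ratio with subsets weighted alike (-0.76) and with cell cycle genes kept in the clustering (-0.93). The Lef1 subset carried much of it, with 83 and 12 UMIs, or 109 and 40.6 CPM. Without that subset the ratio of Mcm4 was -0.36, where the 6 subunits had a median of -0.14. Without weighting, neighbouring subunits were level: Mcm3 at 49.5 and 49.4 CPM, Mcm6 at 52.8 and 51.8 CPM and Mcm2 at 34.1 and 34.1 CPM. With subsets weighted alike, Mcm6 stood at -0.46, Mcm3 and Mcm7 at -0.24 each, Mcm2 at -0.09 and Mcm5 at 0.02. In B-like cells Mcm4 was at 37.4 and 33.5 CPM (-0.16, -0.42 to 0.11).

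Of the genes of helicase activation, 3 of 5 read in T-like cells were at least 1.5 times higher, where 13.7% of all genes were, with a median of 0.64. With subsets weighted alike it was 2 of 5, with 1 at least 1.5 times lower and a median of 0.11. Cdc45, which joins the ring to form the active helicase, had 11 and 37 UMIs, or 5.14 and 12.4 CPM, a log2 ratio of 1.27 (0.26 to 2.39). Gins4, a GINS subunit, had 33 and 72 UMIs, or 15.4 and 24.1 CPM (0.64, 0.03 to 1.28), and was 0.68 with subsets weighted alike. Gins3 had 7 and 17 UMIs, and its interval crossed 0 (0.80, -0.55 to 2.31). With cell cycle genes kept in the clustering, Cdc45 turned to -0.47 and Gins3 to -0.57, over 13 and 9 UMIs in all. Gins3 (0.11), Gins2 (-0.44) and Mcm10, which helps fire the helicase (-0.64), were lower when weighted alike. Unweighted, Gins2 stood at -0.24 and Mcm10 at 0.44, with intervals that crossed 0.

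In licensing, Cdc6, the loading ATPase, had 9 and 29 UMIs, or 4.20 and 9.69 CPM, a log2 ratio of 1.20 (0.09 to 2.47). Its UMIs came from 4 WT cells and 16 CKO cells, and the ratio was 0.40 with subsets weighted alike. Cdt1 had 78 and 77 UMIs, or 36.4 and 25.7 CPM (-0.50, -0.98 to -0.03). Gmnn, the inhibitor of Cdt1, was at 42.0 and 45.4 CPM (0.11), and Orc6 at 37.8 and 31.4 CPM (-0.27, -0.71 to 0.18).

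Among polymerases, Pold1, the catalytic subunit of polymerase delta, had 15 and 47 UMIs, or 7.01 and 15.7 CPM, a log2 ratio of 1.16 (0.30 to 2.11) and 0.86 with subsets weighted alike. Pole, the catalytic subunit of polymerase epsilon, had 10 and 23 UMIs (0.72, -0.41 to 1.95) and was -0.51 with subsets weighted alike. Pold3 (-0.14) and Pola2 (0.26), subunits of polymerases delta and alpha, did not differ beyond counting error. All 8 clamp, loader and Okazaki genes read lay above 0, with a median of 0.20, and none reached 1.5-fold. With subsets weighted alike 4 of the 8 lay above 0 and 4 below, with a median of -0.04, so no shared direction remained. Pcna was at 206 CPM in the WT library and 232 CPM in the CKO library (0.17, -0.01 to 0.34). Rfc2, a clamp loader subunit, was at 36.9 and 51.8 CPM (0.49, 0.09 to 0.90), and Rfc1, its large subunit, at 36.0 and 39.4 CPM (0.13).

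Nucleotide supply genes did not differ beyond counting error in T-like cells. Rrm1, the large subunit of ribonucleotide reductase, was at 56.5 and 53.5 CPM (-0.08). Rrm2 was at 23.4 and 26.7 CPM (0.19) and Tyms at 22.0 and 25.7 CPM (0.23), all with intervals that crossed 0. With subsets weighted alike all 3 were below 0, at -0.52, -0.47 and -0.21. Among chromatin genes, Uhrf1 had 33 and 91 UMIs, or 15.4 and 30.4 CPM, a log2 ratio of 0.98 (0.39 to 1.60). Uhrf1 was 0.64 without the Cd8a Itgae subset and 0.32 with subsets weighted alike. Atad2, a chromatin ATPase, was at 121 and 162 CPM (0.42, 0.20 to 0.64), but at 0.01 without the Cd8a Itgae subset. Nasp, a histone chaperone, was at 185 and 161 CPM (-0.20), and Slbp, which binds histone messenger RNA, at 139 and 132 CPM (-0.08). Of the regulators, Dtl, which marks Cdt1 for destruction on loaded Pcna, was at 0.06, the cyclin Ccne2 at 0.23 and E2f8 at -0.29, all within counting error.

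**Figure D3:**
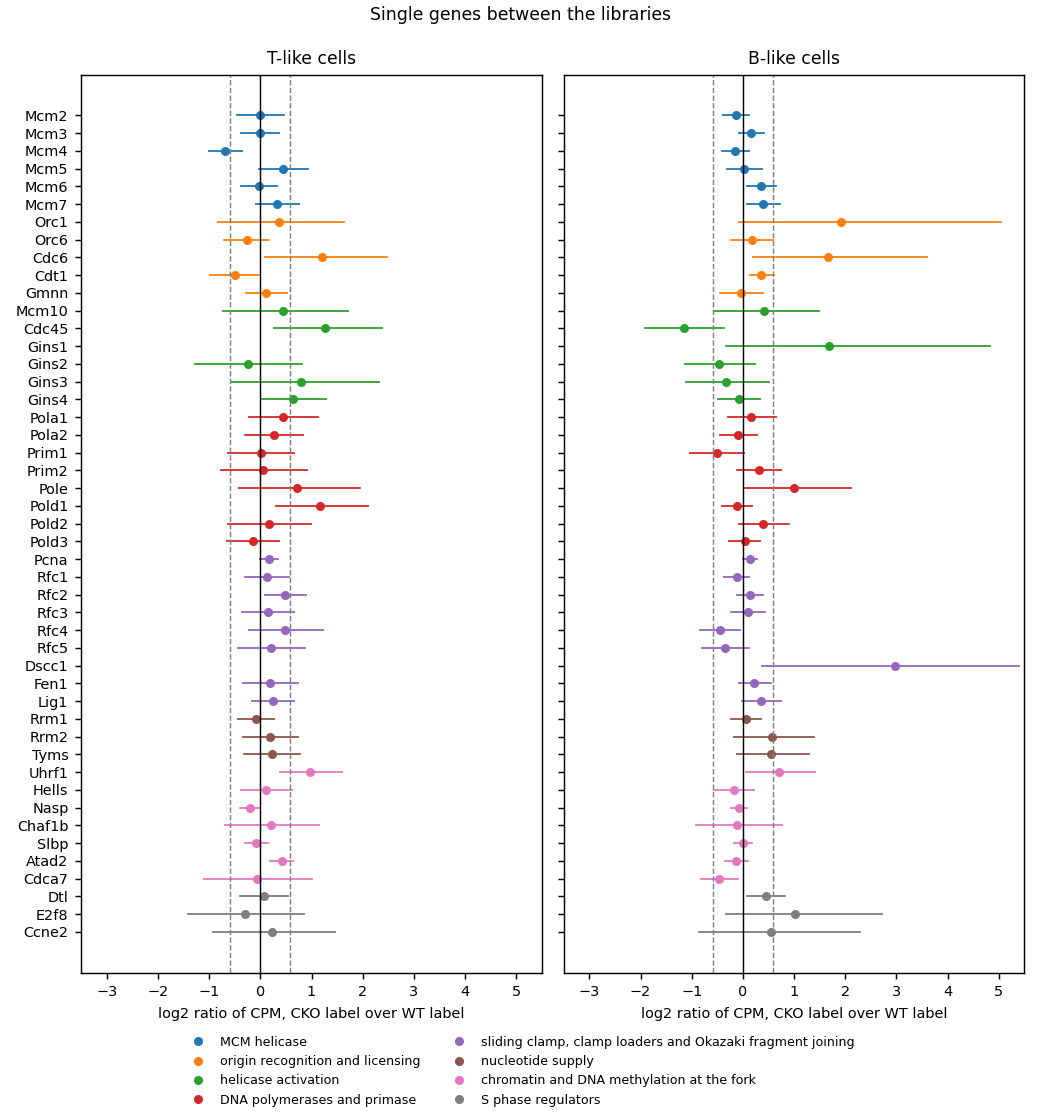
Log2 ratio of CKO over WT of each replication gene in T-like and in B-like cells, ordered by role, with 95% counting intervals; dashed lines mark 1.5-fold, genes not read in a class are left out, and the interval of Dscc1 in B-like cells runs past the axis. Mcm4 is the T-like point below the lower dashed line, at -0.69, and Cdc45 stands at 1.27 in T-like and at -1.15 in B-like cells.

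B-like cells had a summed log2 ratio of 0.06 (0.01 to 0.11), whose sign was not stable: it was -0.47 with cells called by their own markers and -0.052 with cell cycle genes kept in the clustering. The class was built of different clusters, since a Cd55 S1pr1 cluster held 379 of 916 WT cells and 304 of 4324 CKO cells. All 47 genes were read, with 7 at least 1.5 times higher in the CKO library, against 5.93% of all genes, and 1 at least 1.5 times lower, against 6.4%. The 7 were scarce in the WT library. Among them Dscc1, Orc1, Gins1 and Cdc6 passed the minimum of UMIs to be read almost only through the CKO library. That by itself favours higher genes, so nothing is concluded from the count of 7. Dscc1 had 1 UMI in the WT library and 28 in the CKO library (2.97, 0.38 to 8.33), Orc1 2 and 27 (1.92, -0.07 to 5.04), and Gins1 2 and 23 (1.69, -0.33 to 4.82). Cdc6 had 4 and 45 UMIs (1.66, 0.20 to 3.60), E2f8 5 and 36 (1.02, -0.34 to 2.72), and Pole 10 and 71 (1.0, 0.03 to 2.12). Uhrf1 had 23 and 133 UMIs, or 5.44 and 8.83 CPM (0.70, 0.05 to 1.41), and Rrm2 was at 4.26 and 6.31 CPM (0.57, -0.17 to 1.38). The lower gene was Cdc45, with 25 and 40 UMIs, or 5.91 and 2.66 CPM (-1.15, -1.91 to -0.37).

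These B-like counts rested in part on the Hspd1 Npm1 cluster, which made up 27 of 916 WT cells and 232 of 4324 CKO cells. Without it 1 of 41 genes read was at least 1.5 times higher, against 5.8% of all genes in the same cells, and 7 were at least 1.5 times lower in the CKO library, against 6.95%. Cdc6 then stood at -0.36, Uhrf1 at -0.73 and E2f8 at -1.19. The abundant genes were level with the cluster counted: Pcna at 118 and 130 CPM (0.14, -0.01 to 0.28), Nasp at 103 and 97.1 CPM and Slbp at 80.6 and 80.4 CPM. Genes at the lower end were Prim1, the catalytic primase subunit (-0.51, -1.03 to 0.03), Gins2 (-0.47, -1.14 to 0.25), Cdca7 (-0.46, -0.82 to -0.09), Rfc4 (-0.45, -0.83 to -0.06), Rfc5 (-0.35), Gins3 (-0.33) and Hells, a chromatin remodeller (-0.18). With germinal centre B-like cells and an unnamed Egr3 Myc B cluster counted as B-like, the sum turned to -0.53, at 1600 CPM in the WT library and 1110 in the CKO library.

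In plasma-like cells the sum was 0.16 (0.09 to 0.23) as a log2 ratio. Of 46 genes read 6 were at least 1.5 times higher, against 8.06% of all genes, and 1 was at least 1.5 times lower, against 8.61%. Cdc6 had 20 and 77 UMIs, or 4.48 and 9.44 CPM (1.08, 0.35 to 1.86), Hells 33 and 117 UMIs (0.96, 0.39 to 1.56) and Dtl 41 and 133 UMIs (0.83, 0.31 to 1.37). Pold1 was the lower one, with 24 and 24 UMIs (-0.87, -1.75 to 0.01). Without the Ighg2b Hsp90b1 cluster the plasma-like sum was -0.17. Cdc6 was above 1.5-fold in T-like, B-like and plasma-like cells, but at 0.40 in T-like cells with subsets weighted alike. In B-like cells without the Hspd1 Npm1 cluster it was at -0.36, on 3 and 8 UMIs, too few to be read.

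Within T-like cells the subsets diverged. CD8 T-like cells carried 2482 CPM of replication genes in the WT library and 2447 CPM in the CKO library (64 and 89 cells, -0.02), and stood 2.03-fold and 2.49-fold above the Lef1 subset. The Lef1 subset carried 1220 and 982 CPM (-0.31), where 1 WT cell held 169 of 928 UMIs, and without the top cell of each library the ratio was -0.11 (-0.31 to 0.09). An Ikzf2 Cd7 subset carried 1431 and 1459 CPM (0.03). CD4 T-like cells carried 2164 CPM in 38 WT cells and 1148 CPM in 151 CKO cells (-0.91), but 1 WT cell held 310 of 484 UMIs, and without the top cell of each library the ratio was 0.12. Of 20 genes read in CD4 T-like cells 0 were at least 1.5 times higher, against 19.6% of all genes, and 16 at least 1.5 times lower, against 15.8%. Lig1 was at 14 and 7 UMIs and Pcna at 45 and 118 UMIs (-0.06). This count keeps the WT cell that held 310 of 484 UMIs. It can reflect that 1 cell, so nothing is concluded from it. Gamma-delta T-like cells carried 999 and 1527 CPM (0.61). There, 1 CKO cell held 196 of 534 UMIs, and the ratio was 0.35 without the top cell of each library and 0.14 (-0.15 to 0.44) without the top 2. For the same reason no count of genes is given for gamma-delta T-like cells. The Cd8a Itgae subset carried 1397 CPM in 7 WT cells and 2528 CPM in 96 CKO cells (0.86, and 1.17 without the top cells). Its genes passed the minimum of 20 UMIs almost only through the CKO library, so no count is given there either. At 1000 UMIs, 17.2% and 20.5% of CD8 T-like cells were positive, 13.2% and 8.33% of the Lef1 subset, 10.5% and 10.2% of CD4 T-like cells, and 14.3% and 27.1% of the Cd8a Itgae subset.

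NK-like cells gave the widest summed ratio among the classes in which the CKO library was higher, 0.89 (0.64 to 1.14), from 139 UMIs in 24 WT cells and 2822 UMIs in 243 CKO cells. Genes passed the minimum of 20 UMIs here almost only through the CKO library, and 7 of the 35 that passed had no UMI in the WT library, where a count of 0 allows up to 21.6 CPM. No count of higher and lower genes is therefore given. Mcm5 had 0 and 103 UMIs, the latter 67.5 CPM, and Rrm1 had 1 and 104 UMIs (3.24, 0.73 to 8.56). Pcna was at 173 and 268 CPM (0.63, 0.04 to 1.29), and Cdt1 was the lower one, with 5 and 29 UMIs (-0.92, -2.31 to 0.80). The result turned with the clustering: with cell cycle genes kept in it, a group of 8 WT and 77 CKO cycling cells joined the NK-like class and the ratio was -0.40.

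The replication genes were followed across the cell cycle by splitting cells on transcripts of the later phases. T, NK, B, germinal centre B and plasma-like cells with 2 or more UMIs of 50 G2 and M phase genes, at 1000 UMIs per cell, numbered 195 in the WT library and 463 in the CKO library. They carried 2262 CPM of replication genes in the WT library against 859 CPM in cells with none (log2 1.40, 1.23 to 1.56), and 1998 against 833 CPM in the CKO library (1.26, 1.15 to 1.37). The split was narrower within single classes that hold most of these cells, at 1.38-fold and 1.81-fold in B-like cells and 1.79-fold and 2.12-fold in T-like cells, and wider within plasma-like cells, at 17.1-fold and 12.3-fold. The pooled value thus mixes classes of different level. By gene, 24 were read in the WT library (20 or more thinned UMIs) and 34 in the CKO library. The highest log2 ratios in the CKO library were those of Rrm2 (5.85, on 21 and 3 UMIs), Uhrf1 (5.05), Gmnn (2.88), Prim1 (2.68) and Rrm1 (2.54), and the lowest those of Pold3 (-0.33), Cdca7 (-0.32), Cdt1 (-0.27), Pold1 (0.16) and Prim2 (0.22). In the WT library the highest were Rfc4 (2.68), Lig1 (2.65), Hells (2.50), Mcm5 (2.47) and Orc6 (2.45), and the lowest Cdt1 (0.15), Mcm4 (0.40), Atad2 (0.43), Mcm2 (0.55) and Pold3 (0.58). Cdt1 and Pold3 were among the 5 lowest in both libraries. Since the cells were split by their own transcripts, these values are descriptions.

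Across 30 sums of a class or cluster in a library, most MCM subunits followed the rest of the programme closely. Spearman's rho of a gene with the sum of the other 46 was 0.90 for Mcm6, 0.87 for Mcm2 and for Pola1, 0.86 for Mcm3 and for Mcm7 and 0.85 for Mcm4, but 0.74 for Mcm5, below Orc6 (0.82) and Prim1 (0.81). It was lowest for Mcm10 (0.23), Cdc6 and Dscc1 (0.27 each) and Prim2 (0.38). The points share libraries and differ in depth, and low-count genes such as Cdc6 are set by few UMIs. Cdt1 was highest not in germinal centre B-like cells but in the unnamed Egr3 Myc B cluster of the CKO library, at 74.2 CPM.

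Other genes of the cycle were read from lists of the same pathway. In T-like cells, of 45 further replication and S phase genes read, 12 were at least 1.5 times higher and 4 at least 1.5 times lower in the CKO library (13.7% and 7.68% of all genes), with a median of 0.11. The balance turned with the subsets counted: it was 6 higher and 7 lower of 43 without the Cd8a Itgae subset (11% and 8.23% of all genes), with a median of -0.01, and 5 higher and 10 lower of 45 with subsets weighted alike (9.79% and 9.7%), with a median of -0.21. Pclaf, a Pcna-binding protein, was at 89.2 and 114 CPM (0.35) and Dut, which removes dUTP, at 101 and 93.9 CPM (-0.11). Brca1, of homologous recombination, was at 4.20 and 12.4 CPM (1.56), while Ung, which removes uracil from DNA, was at -1.18. Of 45 G2 and M phase genes read, 29 were at least 1.5 times higher and 0 at least 1.5 times lower (13.7% and 7.68% of all genes), with a median of 0.82. Mki67 was at 80.8 and 187 CPM (1.21), Top2a at 93.4 and 157 CPM (0.75), Smc4 at 192 and 228 CPM (0.25), and Cenpf, a kinetochore protein, at 12.6 and 59.8 CPM (2.25). That G2 and M count depended on which T cell subsets were counted. It was 16 of 42 without the Cd8a Itgae subset (11% of all genes) and 18 of 45 without the Lef1 subset (10.3%). With subsets weighted alike it was 8 of 45 (9.79%), with 1 at least 1.5 times lower (9.7%). With cell cycle genes kept in the clustering it was 4 of 19 (11.1% of all genes), with 1 lower (8.23%) and a median of 0.29. Of 26 entry and exit regulators read, 4 were higher and 3 lower by 1.5-fold, or 15.4% and 11.5%, against 13.7% and 7.68% of all genes. Ccnd2, a G1 cyclin, was at 317 and 358 CPM (0.17) and Myb at -1.49. In B-like cells 4 of 47 G2 and M phase genes (8.51%) were at least 1.5 times higher, against 5.93% of all genes. There 10 (21.3%) were at least 1.5 times lower, against 6.4%, with a median of -0.16. Whether T-like and B-like cells differ here beyond these 2 libraries was not tested.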

How the data were processed

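Colon-infiltrating immune cells were profiled with 10x 3′ v3.1 chemistry, 1 library for each label. The deposited files hold raw UMI counts per gene and barcode. Per the file headers they were made with Cell Ranger 6.0.1. The submitters' processing notes instead list version 5.0.0 of that tool, beside Seurat 3.2.3 and the build mm10. Tags come from 3′ ends, so levels are not compared between genes.

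Cells with at least 200 genes and at most 20% mitochondrial UMIs were kept (2925 and 11155 before doublet calling with Scrublet in scanpy 1.11.5). Cells were clustered (2000 variable genes, 30 components, 15 neighbours, Leiden resolution 1 with leidenalg 0.10.2, seed 0; 1500 genes and 20 components within compartments) without 257 cell cycle genes. Clusters were named from marker lists of 19 classes. That naming rule was revised after the clusters had been seen, because its first form called an Egr3 Myc B cluster plasma-like and left a neutrophil cluster unnamed. Mixed clusters (342 and 1254 cells) and unnamed clusters (602 and 502 cells) stayed outside the classes. Where a cell type is named, it rests on these rebuilt names.

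Sums of UMIs over the cells of a class in a library became CPM values, with exact Poisson intervals, and ratios with exact conditional binomial intervals, at 95% (numpy 2.4.6, scipy 1.17.1, pandas 2.3.3, Python 3.11.15). They cover counting error only. Between the libraries, a gene was read at 20 UMIs over both and counted at 1.5-fold, beside the same share of all genes read. No p-value was computed, since there is 1 library per label. Likeness used log2(CPM + 1) over sums of at least 50000 UMIs. Scripts were tested on simulated data.

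Every one of the 47 genes is accounted for by role. Those named are up to 3 of most UMIs per role, the 8 highest and 8 lowest ratios in T-like and in B-like cells, and the 5 highest and 5 lowest in the G2 and M split. From other lists, the 4 of most UMIs and the 2 highest and 2 lowest in T-like cells were eligible. Genes named for plasma-like and NK-like cells, for all cells together and for clusters were chosen after their values were seen. The 47 genes and all lists were chosen with earlier results of these data known. Alternatives covered clustering, cell calls, scaling, depth and thresholds. Protein sequence features were planned and are not analysed here.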

Additional observations from a re-analysis of the deposited data

Results flagged for a closer look

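The summed log2 ratio of CKO over WT of the replication genes lay on opposite sides of 0 in different cell classes, with intervals off 0 on each side. The difference between classes was not tested, since there is 1 library per label. It was above 0 in T-like cells (0.10), NK-like cells (0.89), B-like cells (0.061) and plasma-like cells (0.16). All of these fell below 0 under another clustering or another way of calling cells, as given in the last section, so their side is not fixed. It was below 0 in ILC3-like cells (-0.64, on 34 and 102 cells), neutrophil-like cells (-0.87), DC-like cells (-0.27) and mast-like cells (-1.43, on 10 and 55 cells). Single cells moved some of these. Leaving out 1 cell per library is not even, since in each of these classes it takes a larger share of the WT cells. A ratio can rise by this alone. Without the cell of most replication gene UMIs in each library, mast-like cells stood at 0.40 and DC-like cells at 0.55, so both changed side. In the WT library 1 mast-like cell held 148 of 174 UMIs and 1 DC-like cell 112 of 216. Without such cells, ILC3-like cells stood at -0.39 and neutrophil-like cells at -0.81. Foreign RNA moved with both: plasma cell markers were at 1310 and 8813 CPM and Igkc at 1837 and 14508 CPM in ILC3-like cells of the WT and CKO libraries, and plasma cell markers at 3610 and 1401 CPM in neutrophil-like cells, whose part in the ratios was not tested.

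T cell subsets also lay on both sides, and that difference was not tested either. The ratio was above 0 in the Cd8a Itgae subset (0.86) and in gamma-delta T-like cells (0.61), and below 0 in the Lef1 subset (-0.31) and in CD4 T-like cells (-0.91). Without the top cell of each library these were 1.17, 0.35, -0.11 and 0.12, so that CD4 T-like cells changed side. Here too the step takes a larger share from the library of fewer cells, WT in all but the Lef1 subset. Without the top 2 cells gamma-delta T-like cells stood at 0.14 (-0.15 to 0.44), and the Lef1 interval crossed 0 without 1 (-0.31 to 0.09). The Cd8a Itgae subset rests on 7 WT cells.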

How the results depend on the processing

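No paired analysis was possible because there is 1 library for each label and the labels carry no replicate numbers. Of the alternatives, those that leave out the Lef1 subset, the Cd8a Itgae subset, the Hspd1 Npm1 cluster or the Ighg2b Hsp90b1 cluster, that add germinal centre cells or a mixed B cluster to B-like cells, that leave whole classes out of the all-cell sum, or that leave out the top 2 cells, were chosen after seeing the data. The causes of the shifts were not tested. The summed log2 ratio over all cells, -0.40, was -0.62 with CPM computed without immunoglobulin, ribosomal and mitochondrial genes, -0.34 centred on the median gene and -0.36 as a mean of per-cell CPM. For T-like cells, 0.10 became -0.065 with cells called by their own markers, -0.015 without the immunoglobulin, ribosomal and mitochondrial genes, 0.028 when centred, 0.16 without the top cells, -0.19 with subsets weighted alike, -0.062 without the Cd8a Itgae subset and -0.014 without the Lef1 subset, so its direction is not fixed by these data. For B-like cells, 0.06 became -0.052 with cell cycle genes kept in the clustering, -0.47 with cells called by their own markers, -0.027 as a mean of per-cell CPM, -0.53 with germinal centre cells and the Egr3 Myc cluster counted, and -0.053 without the Hspd1 Npm1 cluster. For plasma-like cells, 0.16 became -0.094 with cell cycle genes kept, -0.15 by own markers, 0.31 without the top cells and -0.17 without the Ighg2b Hsp90b1 cluster. For NK-like cells, 0.89 reversed to -0.40 with cell cycle genes kept, and was 0.31 by own markers and 0.51 as a mean of per-cell CPM. Of T-like genes, 7 higher became 3 with 50 UMIs to read a gene, at 2-fold and with subsets weighted alike, and 1 lower became 2 with 10 UMIs to read a gene, 0 at 2-fold, 5 with subsets weighted alike and 2 without the Cd8a Itgae subset. Of B-like genes, 7 higher became 2 with 50 UMIs and with cell cycle genes kept, and 1 lower became 5 with cell cycle genes kept. Shares of positive cells moved with the depth and the cutoff, given for the WT and then the CKO library. T-like cells gave 31.4% and 33.8% at 2 or more UMIs, 2.71% and 4.42% at 5 or more, 2.94% and 4.62% thinned to 500 UMIs, 36.2% and 36.8% thinned to 2000, and 9.79% in the CKO library with cell cycle genes kept. B-like cells gave 22.7% and 24.0%, 0.793% and 1.14%, 1.75% and 1.55%, and 29.0% and 27.2% under the same settings, and 7.20% in the CKO library with cell cycle genes kept. Plasma-like cells gave 1.85% and 2.58% thinned to 500 UMIs and 0% and 0.220% with cell cycle genes kept, and in the CKO library 8.80% at 2 or more, 2.80% at 5 or more and 9.02% thinned to 2000. NK-like cells gave 45.8% and 34.0% at 2 or more, 0% and 7.41% thinned to 500, 33.3% and 40.0% thinned to 2000, and in the CKO library 4.62% at 5 or more and 27.5% with cell cycle genes kept. The G2 and M split, 1.40 and 1.26, was 1.78 and 1.60 by Mki67 or Top2a UMIs and 1.06 and 0.83 thinned to 2000 UMIs. The other 63 values stayed within the counting error or within 1.5 times the count. At 1 library per label, no difference can be told apart from one between animals, and classes of few WT cells (NK, mast, DC) are limited by depth.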
